A study of Mus musculus with 3 samples.

Results

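DNase-seq, which maps stretches of chromatin that are open to cutting by deoxyribonuclease I, was carried out on MEL cells, a mouse erythroleukemia line of transformed red-cell precursors, and the labels name no treatment or added allele. The 3 libraries came from 2 biological replicates. The 2 libraries of replicate 1 share 1 merged list of 281600 peaks, and the single library of replicate 2 has a list of 89046 peaks, all on the mm10 build. The read depth behind either list is not given in the sources used here. The regions described are the 500-kb windows of chromosomes 1 to 19, laid end to end from position 3000000, that hold no replicate 2 peak centre. They number 758 of 4802 windows (15.8%) and span 379 Mb.

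The windows were chosen by the positions of replicate 2 peaks, so the absence of those peaks is a rule and not a result. The replicate 1 list, the gene annotation (GENCODE release 21, basic set) and the reference sequence were not used in the choice and are the readouts below. Just outside the threshold lie 368 windows with 1 replicate 2 peak and 247 windows with 2. Each replicate is represented by 1 list, so differences between the replicates were not tested, and the number of libraries, their depth and the replicate cannot be told apart.

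Open chromatin in a differentiated cell is concentrated at promoters and at enhancers bound by lineage factors, such as GATA factors in erythroid cells, and at sites bound by CTCF, the insulator protein that anchors chromatin loops in most cell types. Large tandem families of receptor genes for smell, pheromones and taste are silent outside sensory cells. Long genes for neuronal adhesion molecules and ion channels often stand alone in gene-poor, AT-rich tracts. The V genes of the immunoglobulin heavy chain are the segments that B-cell precursors join to make antibody genes, and they lie in a tract of their own at the end of chromosome 12.

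Of an erythroid list of 35 genes, 32 were autosomal protein-coding genes, and 28 of these had a replicate 1 peak within 1000 bp of a start and 23 had a replicate 2 peak there. For a housekeeping list of 20 genes, the 18 autosomal members each had a promoter peak in both lists. Neither list had a gene that starts in the windows (0 of 32 and 0 of 18), which the rule largely fixes for the 23 and 18 genes with a replicate 2 promoter peak. Over all 20807 autosomal protein-coding genes, 5.27% start in the windows and 59.3% had a replicate 1 promoter peak. With lists this short, whether 0 differs from 5.27% was not tested.

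The following sequences were chosen because they show the kinds of replicate 1 peak that remained in the windows. Each is the 150 bp of a peak on the forward strand of GRCm38, read from the RefSeq genome, and capitals mark letters that matched 1 of 6 motifs searched on both strands. The motifs were AGATAA for GATA factors, TGANTCA for AP-1, CCNCNCCC for KLF factors, TGTGGT for RUNX factors, CCGGAA for ETS factors, and the 12-letter consensus of CTCF. None of the 6 contains another. The first pair are the highest peaks in the windows, in a dense stretch beside Skint11. The next pair lie among the heavy-chain V genes. The following 3 have a CTCF match and lie in windows with 20 or fewer replicate 1 peaks, and the last lies just upstream of the start of Ephb1.
Skint11 stretch, chr4:114129016-114129165: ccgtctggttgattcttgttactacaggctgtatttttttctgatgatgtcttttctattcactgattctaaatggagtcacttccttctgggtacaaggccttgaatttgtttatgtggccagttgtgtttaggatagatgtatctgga
Skint11 stretch, chr4:114140696-114140845: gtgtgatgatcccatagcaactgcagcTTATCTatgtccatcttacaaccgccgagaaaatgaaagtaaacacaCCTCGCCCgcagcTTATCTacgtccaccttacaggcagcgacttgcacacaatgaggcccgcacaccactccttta
Heavy-chain V tract, chr12:115064756-115064905: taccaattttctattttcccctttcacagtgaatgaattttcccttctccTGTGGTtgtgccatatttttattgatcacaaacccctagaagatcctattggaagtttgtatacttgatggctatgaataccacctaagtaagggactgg
Heavy-chain V tract, chr12:115605056-115605205: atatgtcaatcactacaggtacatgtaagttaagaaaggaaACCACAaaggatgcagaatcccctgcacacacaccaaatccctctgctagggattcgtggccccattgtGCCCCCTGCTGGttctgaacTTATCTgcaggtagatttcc
Chl1 intron, chr6:103682976-103683125: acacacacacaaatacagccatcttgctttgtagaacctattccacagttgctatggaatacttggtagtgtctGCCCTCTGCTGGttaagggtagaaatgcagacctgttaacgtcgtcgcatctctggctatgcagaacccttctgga
Intergenic, chr5:12030136-12030285: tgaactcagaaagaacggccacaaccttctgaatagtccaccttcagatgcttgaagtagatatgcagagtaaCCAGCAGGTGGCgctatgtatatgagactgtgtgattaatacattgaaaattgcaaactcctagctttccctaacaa
Cdh11 intron, chr8:102781056-102781205: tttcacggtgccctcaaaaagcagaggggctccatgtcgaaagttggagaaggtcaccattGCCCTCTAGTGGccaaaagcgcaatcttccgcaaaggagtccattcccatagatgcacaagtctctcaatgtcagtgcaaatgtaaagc
Upstream of Ephb1, chr9:102354836-102354985: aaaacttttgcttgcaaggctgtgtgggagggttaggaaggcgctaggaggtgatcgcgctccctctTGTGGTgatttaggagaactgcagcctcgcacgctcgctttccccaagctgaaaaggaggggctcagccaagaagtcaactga

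The windows were spread unevenly over the autosomes. Chromosome 4 had 77 of 307 (25.1%), chromosome 7 had 66 of 284 (23.2%) and chromosome 8 had 57 of 252 (22.6%). Chromosome 15 had 12 of 202 (5.94%), chromosome 19 had 9 of 116 (7.76%) and chromosome 9 had 19 of 243 (7.82%). The windows formed 396 runs of adjacent windows, of which 212 were single windows. The other 184 runs held 546 windows, and 23 runs of at least 5 windows held 140.

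**Figure D1:**
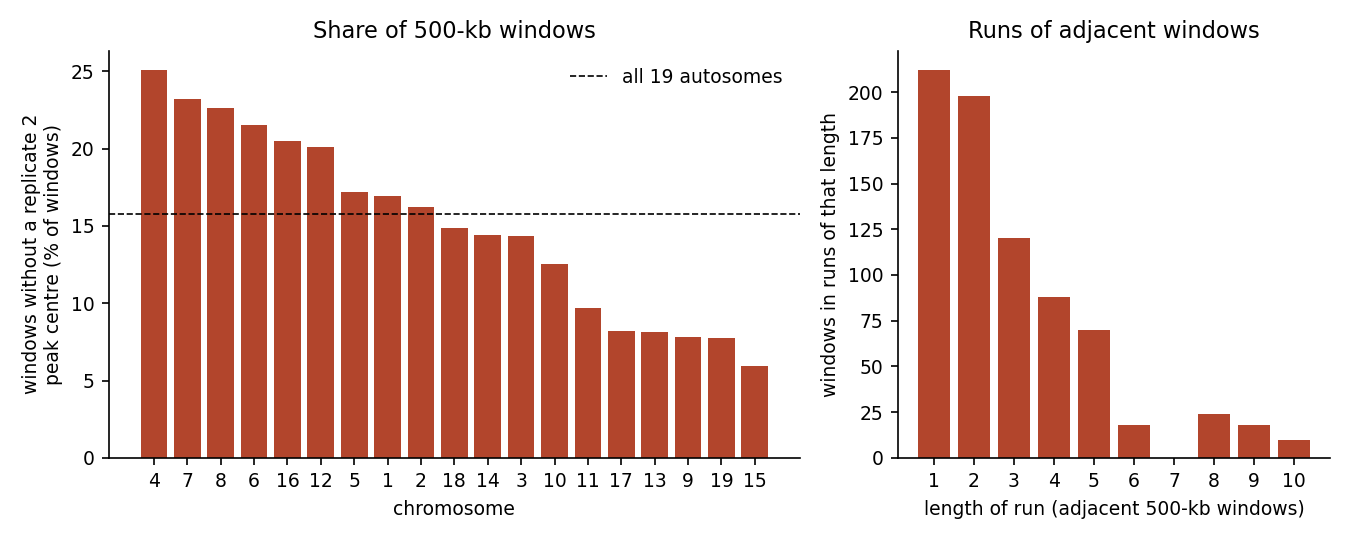
Left, the share of 500-kb windows without a replicate 2 peak centre on each autosome, in falling order, with the share over all autosomes (15.8%) as a dashed line. Right, the number of such windows by the length of the run they belong to, from 212 single windows to 1 run of 10.

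The longest run, chr1:112500001-117500000, comprised 10 windows with 2 protein-coding gene starts, Cntnap5a, a neurexin-family adhesion gene, and the gene model Gm19965. It held 42 replicate 1 peaks with a median score of 24, where the score is the authors' value per peak, from 1 to 150. Cntnap5a itself, a gene of 903 kb, held 9 replicate 1 peaks and none at its promoter. The distance between the replicate 2 peak centres on either side of this run was 5.22 Mb.

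The 9-window run chr8:98500001-103000000 lay in the largest distance between neighbouring replicate 2 centres among the runs, 5.23 Mb. Its 2 protein-coding genes were the classical cadherins Cdh8 and Cdh11, calcium-dependent cell adhesion molecules. Cdh8 held 5 of the run's 20 replicate 1 peaks and Cdh11 held 1, the intronic CTCF-matched peak printed above, which scored 82 and lay 4.51 kb from the Cdh11 start.

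The 8-window run chr4:66000001-70000000 held Astn2, a neuronal migration gene, Brinp1, and Tlr4, the receptor for bacterial lipopolysaccharide. It had 10 replicate 1 peaks, and the highest of them (score 67) lay at the Tlr4 promoter. The 8-window run chr5:81500001-85500000 held Epha5, an ephrin receptor, and Tecrl, and neither gene had a replicate 1 peak within its body. Its 12 replicate 1 peaks had a median score of 42.

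A different kind of run was chr14:3000001-7500000, 9 windows at the start of the analysed part of chromosome 14. It held 96 protein-coding gene starts, among them the gene models Gm3383, Gm3005, Gm3002, Gm3173, Gm8206 and Gm10251, and 14 replicate 1 peaks. On average, 5.06% of its sampled 32-base words occurred once in the genome, and the part of this in its low peak count was not tested. By comparison, the mean in the chromosome 8 run was 84.8% and in the chromosome 1 run 79.8%. The 8-window run chr7:7500001-11500000, with 34 protein-coding genes including Vmn1r68 and Vmn2r35, had 20.5% such words.

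The windows were poorer in GC than the rest, with a median of 38.3% against 42.2% in the other 4044 windows. The windows just outside the threshold were close to them, with medians of 38.8% at 1 replicate 2 peak and 38.8% at 2. GC was under 38% in 323 windows (42.6%), against 11.7% of the other windows. Counted from the composition side, 40.6% of the 795 windows with GC under 38% had no replicate 2 peak centre, and 3.69% of the 1384 windows with GC of at least 44%. CpG dinucleotides numbered 5.45 per kb at the median, against 8.70 per kb in other windows. Interspersed and simple repeats (soft-masked bases) made up 39.1% of a window at the median, against 30.7% elsewhere.

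Uniqueness of sequence set part of the windows apart. In 80 of the 758 windows (10.6%) fewer than 50% of sampled words were unique, against 144 other windows (3.56%). In 480 windows (63.3%) at least 80% of words were unique, against 3235 of the other 4044 windows. Undetermined bases exceeded 10% in 13 windows and in 35 other windows. Whether base composition or uniqueness changed the number of called peaks was not tested.

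Replicate 1 peaks were few in most of the windows. The 638 windows with at least 1 held 4135 replicate 1 peaks, which is 1.54% of the 269097 replicate 1 peaks in all windows, in 15.8% of the length. The median was 2 peaks per window (middle 50%, 1 to 5), against 53 in the other windows (19 to 102). Next to the threshold, windows with 1 replicate 2 peak had a median of 5 replicate 1 peaks (3 to 8), and those with 2 had 8 (6 to 13).

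**Figure D2:**
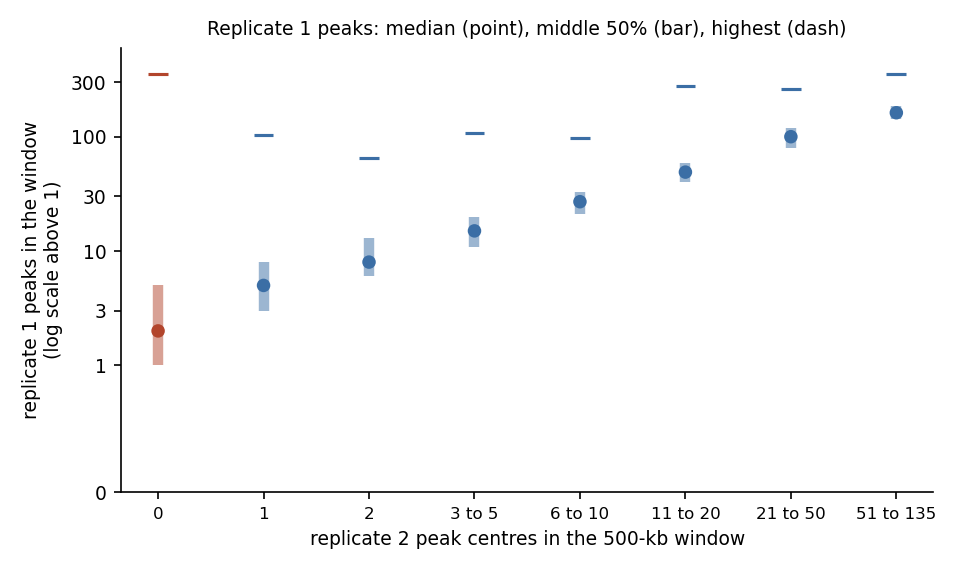
Replicate 1 peaks per 500-kb window (y axis, logarithmic above 1) by the number of replicate 2 peak centres in the window (x axis), with windows that hold none in red and all others in blue. Points are medians, bars the middle 50% of windows and dashes the highest window. The median is 2 at no replicate 2 peak and 5 at 1, and the highest window without a replicate 2 peak has 351 replicate 1 peaks.

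In 120 of the windows (15.8%) replicate 1 had no peak centre either, against 1 of the other 4044 windows. The longest run of windows with no peak in either list was 4. These 120 windows held 225 protein-coding gene starts, and their median GC was 37.8%, against 38.5% in the 638 windows with a replicate 1 peak. By uniqueness, replicate 1 had no peak in 24 of the 80 windows with under 50% unique words, in 32 of the 198 windows between 50% and 80% (16.2%) and in 64 of the 480 windows above that (13.3%).

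No replicate 2 peak overlapped any of the 4135 replicate 1 peaks, which the rule nearly fixes, and no replicate 2 hotspot, the wider enriched region that the authors also called, reached into the windows. The replicate 1 peaks inside had a median score of 29 (5 to 110). Replicate 1 peaks in other windows had a median score of 59 where no replicate 2 peak overlapped them and of 121 where one did. Inside, 292 peaks (7.06%) in 135 windows scored at least 60, and 6 scored at least 100. When the replicate 1 list was cut to its 89046 highest peaks, the length of the replicate 2 list, 12 of those peaks remained inside, in 6 windows. That shorter list left 1337 windows empty, and 752 of them were shared, which is 99.2% of the windows described here and 56.2% of the 1337.

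The 713 windows directly beside a run held 16 peaks of replicate 1 and 4 of replicate 2 at the median, against 65 and 21 in the 3331 windows farther away. Their median GC was 39.8%, against 42.8% farther away. In the windows with 20 or fewer replicate 1 peaks, 330 peaks (14.1%) lay within 50 kb of the border of a run, a zone that makes up 10.4% of the length. Over all 4135 peaks inside, 405 (9.79%) lay in that zone.

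The genes that start in the windows numbered 1096 of 20807 autosomal protein-coding genes, 5.27%, a density of 2.89 per Mb against 9.73 per Mb in the other windows. In 417 windows (55.0%) no protein-coding gene starts, against 18.5% of the other windows. This was not particular to them, since 206 of the 368 windows with 1 replicate 2 peak (56.0%) and 122 of the 247 windows with 2 (49.4%) also had no such start. No part of a protein-coding gene lay in 309 of the 758 windows. Leaving out the 80 windows with under 50% unique words left 693 of the 1096 genes. Protein-coding gene bodies covered 24.5% of the bases, against 44.4% elsewhere. The largest group by symbol was that of predicted genes with Gm symbols, 285 of the 1096 and 23.2% of all 1228 such genes. Unique words at their promoters had a median of 4.12%, against 61.9% over all 1228, and 7 of the 285 had a replicate 1 promoter peak inside the windows. Others were clustered families of receptors and secreted proteins, and long genes of the nervous system.

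Receptors for smell, pheromones and taste made up 301 of the 1096 genes (27.5%). The windows held the starts of 197 of 1128 olfactory receptors (17.5%), the odorant receptors of the nose. They lay in 11 windows, and 102 of them on chromosome 2. The 5 windows with the most protein-coding genes included 4 that were mostly olfactory receptors, such as chr2:87500001-88000000 with 28 receptors among 29 genes and chr10:129500001-130000000 with 26 among 27. Replicate 1 had 4 peaks in the first of these and 1 in the other. Over the 11 olfactory windows replicate 1 had 44 peaks, from 0 to 10 per window.

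Olfr791 (score 39), Olfr788 (score 38) and Olfr776 (score 32) were the olfactory receptors in the windows with a replicate 1 promoter peak. They are 3 of 197, or 3 of the 301 chemosensory genes, against 104 of all 1128 olfactory receptors (9.22%), and they lie close together on chromosome 10. Olfr763, in the same cluster, had no such peak.

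The windows also held 55 of 208 type 1 vomeronasal receptors (26.4%), which detect pheromones, and 27 of 119 type 2 receptors (22.7%). Examples were Vmn1r60, Vmn1r61 and Vmn2r33 to Vmn2r36, and every vomeronasal receptor in the windows lay on chromosome 7. Replicate 1 had a promoter peak at 0 of the 55 and at 0 of the 27, while over the whole families such peaks were few, at 17 of 208 type 1 (8.17%) and 3 of 119 type 2 receptors (2.52%). The share of unique words around their starts had a median of 3.09% for type 1 and 7.22% for type 2, against 70.1% and 73.2% over all autosomal members of each family, and its part in this was not tested. Of 35 bitter taste receptors, 22 (62.9%) started in 2 windows of a 3-window run on chromosome 6, with median promoter uniqueness of 100% and no replicate 1 promoter peak, against 2 of the whole family of 35.

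Some other clustered families, though not all, had a larger share in the windows than the 5.27% of all genes. The Skint genes, of which Skint1 acts in selecting epidermal T cells, had 9 of 11 members there, among them Skint1, Skint3, Skint4 and Skint9. Secretoglobins, small secreted proteins of glands, had 22 of 34, and the placental and pituitary hormones of the prolactin family had 13 of 26, including Prl. The germ-line Pramef and Oog genes had 8 of 15, UDP-glucuronosyltransferases, which conjugate drugs and steroids in the liver, had 8 of 22, and major urinary proteins and lipocalins, which carry pheromones, had 12 of 34. The joint group of keratins and keratin-associated genes had 22 of 113, in 2 windows on chromosome 16, among them the keratin-associated Krtap24-1 and Krtap13-1. Cytochromes P450 had 10 of 100. The members of each of these families in the windows lay in only 1 or 2 runs. Their gene counts therefore do not stand for separate places in the genome. Among the members of these families in the windows, a replicate 1 promoter peak was called at Mup10, with a score of 16. Unique words at promoters in the windows had a median of 7.73% for major urinary proteins and lipocalins (26.8% at Mup10) and 18.0% for secretoglobins. In the other families of this paragraph the median ran from 80.4% (cytochromes P450) to 100% (Skint genes). The part of uniqueness in the lack of promoter peaks was not tested.

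Some families were near or below the share of all genes. The forkhead and Sox factors had 4 of 59 (6.78%), the developmental regulators Sox1, Sox9, Sox11 and Foxa2, and replicate 1 had no promoter peak at these 4. Zinc finger genes had 23 of 415 (5.54%), solute carriers 4 of 358 (1.12%), potassium channels 3 of 92 (3.26%) and protocadherins 1 of 67 (1.49%). Of the 44 families looked at, 32 had a gene in the windows. The 68 Trim genes and the 60 serpins were among those with none. So were clustered families such as the 36 cornified envelope genes, 28 Ceacam and Psg genes and 27 kallikreins. The 26 killer cell lectin-like receptors, 23 interferon genes, 20 Mas-related receptors and 15 trace amine receptors also had none. Defensins had 2 of 64.

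**Figure D3:**
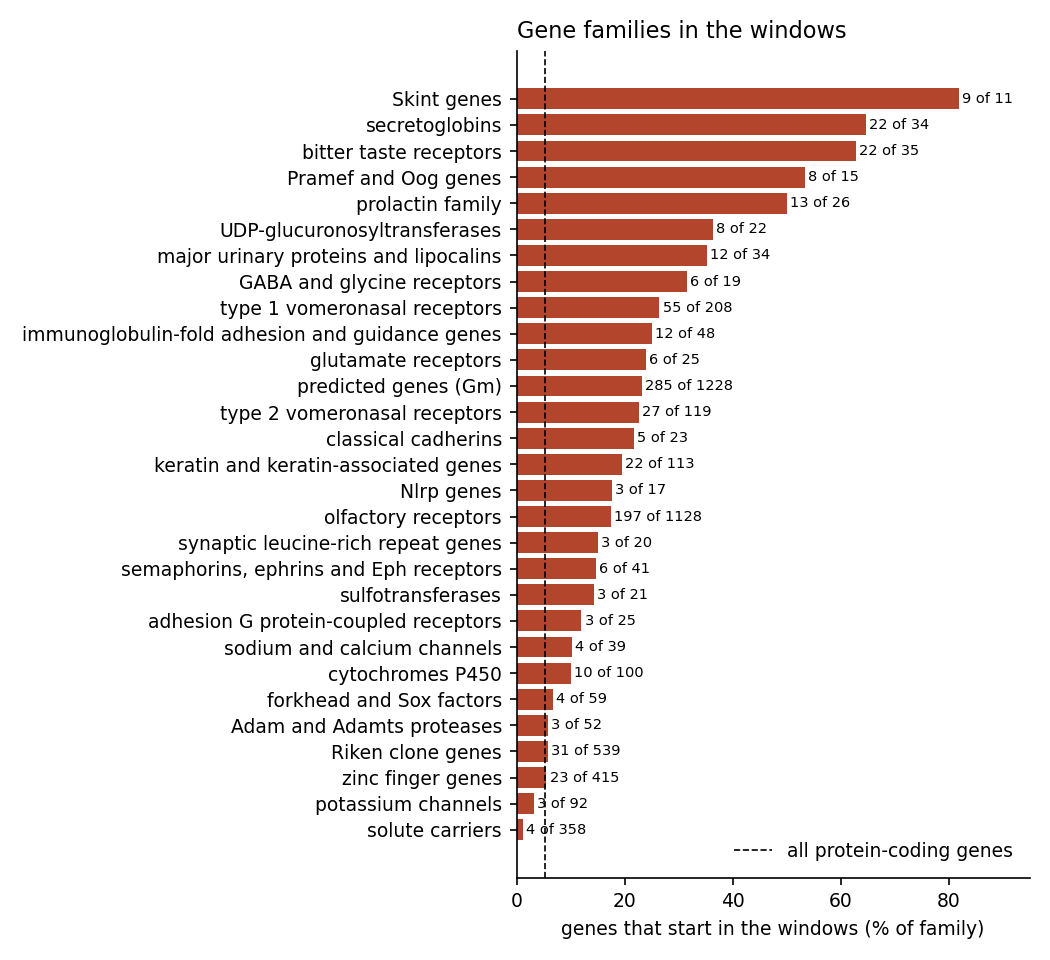
Share of each gene family (bars, % of its autosomal protein-coding members) that starts in windows without a replicate 2 peak centre, with the count beside each bar, for families with at least 3 members inside. The dashed line is the share of all protein-coding genes, 5.27%. Skint genes (9 of 11), secretoglobins (22 of 34) and bitter taste receptors (22 of 35) stand at the top. The group labelled immunoglobulin-fold was set by symbol and also covers adhesion and guidance genes of other structure, such as Cntnap5a.

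Families of synaptic and guidance genes were also represented. GABA and glycine receptors, which carry inhibitory transmission, had 6 of 19 in the windows, including Gabra2, Gabrg1, Glrb and Glra3, of which Glra3 had a replicate 1 promoter peak (score 33). Glutamate receptors had 6 of 25, among them Gria2, Grik1 and Grm3, in 6 different windows. A group of adhesion and guidance genes set by symbol, such as Chl1, Cntnap5a, Tenm2 and Nrg3, had 12 of 48, in 12 windows on 9 chromosomes. Classical cadherins had 5 of 23, among them Cdh4, Cdh7, Cdh8 and Cdh11. The sodium channel genes Scn2a, Scn3a, Scn7a and Scn9a lay in 2 windows on chromosome 2, and replicate 1 had a promoter peak at Scn3a (score 61) and Scn2a (score 38).

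Apart from the receptors and unnamed gene models, the windows held 477 genes with a median length of 47.6 kb, against 21.3 kb for 17050 such genes elsewhere. Of these 477, 61 (12.8%) were longer than 500 kb, against 149 (0.874%) elsewhere. Among the longest were Lsamp (2197 kb), Csmd1 (1643 kb), Fhit (1612 kb) and Magi2 (1478 kb), and also Lrrc4c, Lingo2, Tenm2, Ccser1 and Nkain2. Most of them extend beyond the windows, since 13 of the 61 lay wholly inside.

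The bodies of the 61 long genes held a median of 10.0 replicate 1 peaks per Mb (middle 50%, 4.59 to 16.2), against 34.98 per Mb (15.3 to 88.9) in the 149 long genes elsewhere. Lsamp, an adhesion molecule of limbic neurons, had 27 replicate 1 and 7 replicate 2 peaks over its whole body. Lingo2 had 4 replicate 1 peaks and no replicate 2 peak. Fhit, which spans a common fragile site, had 67 replicate 1 and 18 replicate 2 peaks, the most in both lists among the 10 longest genes. A replicate 1 promoter peak was present at 4 of the 61 (6.56%), against 57 of the 149 (38.3%).

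Replicate 1 had a promoter peak at 27 of the 1096 genes, 2.46% (Wilson 95% interval 1.70 to 3.56%, counting error only), against 59.3% of all autosomal protein-coding genes. The rule removes nearly every gene with a replicate 2 promoter peak from the 1096 but not from all genes. Part of the gap is therefore fixed by the rule, and its size was not computed. This limit holds for every promoter comparison here with genes elsewhere or with a whole family. At 4 of the 27, Celf2, March1, Asap2 and Fhit, the peak lay at an alternative start outside the windows, and replicate 2 also had such a peak at Celf2 and Fhit. At the remaining 23 the peak lay inside the windows, at 17 near the annotated gene start and at 6, among them Chl1, Zfp981, Olfr791, Olfr788 and Ccser1, near another start alone. These 23 scored 8 to 68 with a median of 37, while promoter peaks of genes elsewhere had a median of 139. By uniqueness of the window and not of the promoter, the share was 9 of 403 genes (2.23%) under 50% unique words. It was 10 of 353 genes (2.83%) between 50% and 80%, and 8 of 340 genes (2.35%) above that. These counts are small and include the 4 genes with a peak outside the windows. The part of uniqueness in the promoter share was not tested.

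The highest promoter scores inside the windows were 68 at Ephb1, an ephrin receptor of axon guidance, 67 at Tlr4, 61 at the sodium channel gene Scn3a and 58 at Chl1, a neural adhesion gene, where it lay at an alternative start 187 kb from the annotated gene start. Slc16a7, a monocarboxylate transporter, followed with 56. The Ephb1 peak is the last of the sequences above, its centre 0.218 kb from the start, and it holds 1 RUNX match. Ephb1 held 2 further replicate 1 peaks within its 433 kb. Chl1 had 9 replicate 1 peaks in 240 kb and no replicate 2 peak, and 1 of them is the intronic CTCF-matched peak with a score of 88. Gm6685 (47), Zfp981 (43) and Gm3173 (42) came next, and the share of unique words at their promoters was 54.6%, 38.1% and 12.4%.

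Most replicate 1 peaks in the windows lay away from genes. Of the 4135, 3067 were intergenic (74.2%), 934 intronic (22.6%), 101 exonic (2.44%) and 33 at promoters (0.798%). Among replicate 1 peaks in other windows that no replicate 2 peak overlapped, 37.1% were intergenic and 9.21% lay at promoters. The distribution over the windows was very uneven, since 20 windows had more than 20 peaks each, 5 of them with 1193 peaks and 15 with 607. The other 618 windows with a peak held 2335 peaks, with a median score of 33 against 29 over all. These are called the sparse windows below, although their peaks are not all isolated. A window on chromosome 1 had 19 peaks that all lay in 8.19 kb.

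CTCF letters were more frequent in peaks of the sparse windows, a subset set after values had been seen, than elsewhere. In the sparse windows, 142 of 2335 peaks (6.08%, Wilson 95% interval 5.18 to 7.12%) held a CTCF match. Of replicate 1 peaks in other windows, 1.36% held one where no replicate 2 peak overlapped and 4.72% where one did, and over all 269097 replicate 1 peaks the share was 2.42%. Over all 4135 peaks inside the share was 4.06% (3.50 to 4.71%), between those of the peaks elsewhere without and with replicate 2 overlap. For the sparse windows the comparison at like scores gave a wider gap. For scores of 60 to 79 the match was present in 26 of 142 peaks in sparse windows (18.3%), in 1.52% of 44132 peaks elsewhere without replicate 2 overlap and in 5.98% of 5248 peaks with it.

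For scores of 40 to 59 the shares were 9.73% of 596 peaks in sparse windows, 1.02% elsewhere without replicate 2 overlap and 3.82% with it. Over all peaks inside, the shares were 14.2% of 232 at scores of 60 to 79 and 7.52% of 851 at 40 to 59. In all, 168 peaks inside held a match, in 114 windows, and the match lay a median of 15 bp from the peak centre, as it did in other windows without replicate 2 overlap (15 bp). The heavy-chain windows described below contributed 23 of the 168 and other windows with more than 20 peaks contributed 3. GATA letters had a share in sparse windows between those of the groups elsewhere. They were present in 12.4% of the 2335 peaks in sparse windows, in 11.7% of peaks elsewhere without replicate 2 overlap and in 15.4% of those with it. AP-1 letters were present in 6.64% of the peaks in sparse windows, against 8.08% of peaks elsewhere without replicate 2 overlap. The shares were 10.6% against 15.9% for KLF letters, 14.7% against 15.5% for RUNX letters and 1.46% against 1.83% for ETS letters. A match is a description of letters and not a site of binding.

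**Figure D4:**
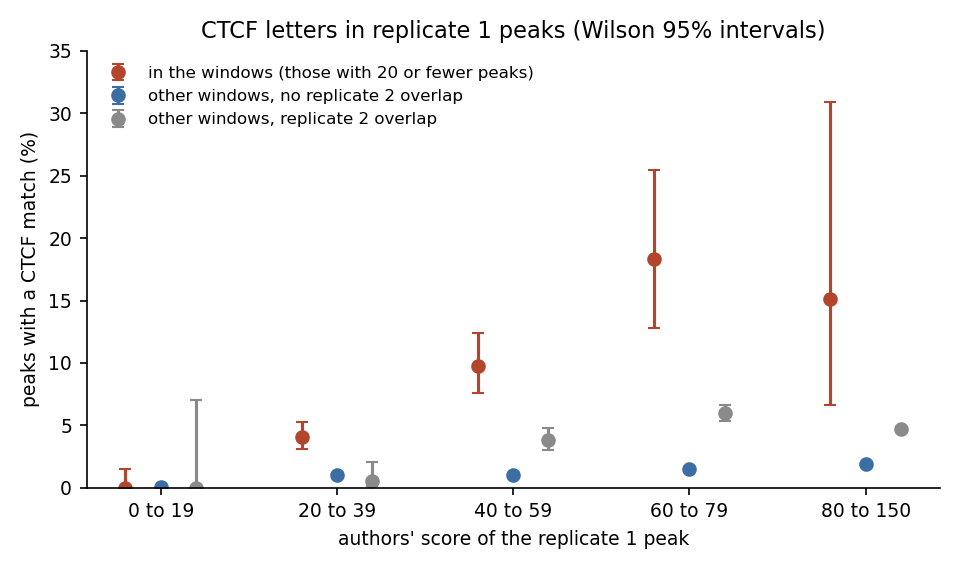
Share of replicate 1 peaks with a CTCF match (y axis, %) by the authors' peak score (x axis), for peaks in windows that hold no replicate 2 peak centre and 20 or fewer replicate 1 peaks (red), peaks in other windows without replicate 2 overlap (blue) and with it (grey). No limit on replicate 1 peaks was set for the other windows. Bars are Wilson 95% intervals, which cover counting error only. At scores of 60 to 79 the red point is at 18.3%, the blue at 1.52% and the grey at 5.98%.

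The CTCF-matched peaks of sparse windows printed above carried the letters in both orientations. The intergenic peak on chromosome 5 (score 88) shows CCAGCAGGTGGC on the forward strand, and the Chl1 peak (score 88) shows GCCCTCTGCTGG, its reverse orientation. The Cdh11 peak (score 82) shows GCCCTCTAGTGG. A further peak with GCCCTCTGCTGG scored 83 and lay 29.7 kb from Tfap2b, a neural-crest transcription factor, in a 5-window run on chromosome 1. At scores of at least 60, 175 peaks lay in 124 of the sparse windows, and 124 of these peaks were intergenic, 47 intronic and 3 at promoters.

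The heavy-chain V genes accounted for the 5 windows with the most replicate 1 peaks. The run chr12:113500001-116000000 held 1193 replicate 1 peaks, 28.9% of all those inside, and no replicate 2 peak. By window, from low to high coordinate, there were 267, 298, 128, 149 and 351 peaks. The last replicate 2 centre before the run was at 113487891 and the first after it at 116028291, which is 2.54 Mb farther on. Without these 5 windows the count inside was 2942 with a median score of 31, and the median per window remained 2. In the 4 windows that flank the run, 2 on each side, replicate 2 had 10 to 92 peaks and replicate 1 had 22 to 270.

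The heavy-chain peaks scored 5 to 109 with a median of 25, against 103 for replicate 1 peaks in the flanking windows. Their neighbours were a median of 440 bp apart. By annotated gene type the tract held 112 functional V genes and 80 V pseudogenes, some of which carry other symbols, and by symbol it held 183 of 185 Ighv segments. Of the functional genes, 56 of the 112 had a replicate 1 peak within 1000 bp of their start. The share of other positions in the tract with a peak that close was not computed. With peaks this dense, the count therefore does not show that peaks favour V genes. Of the 1193 peaks, 40 were centred in a functional V gene and 1128 (94.6%) were intergenic. The single protein-coding gene was Adam6a, a sperm-surface gene known to lie within this locus. Among the highest peaks was the one at 115064756, printed above, with a score of 109 and 1 RUNX match. The peak at 115605056, with a score of 90, held a CTCF, a GATA and a RUNX match.

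**Figure D5:**
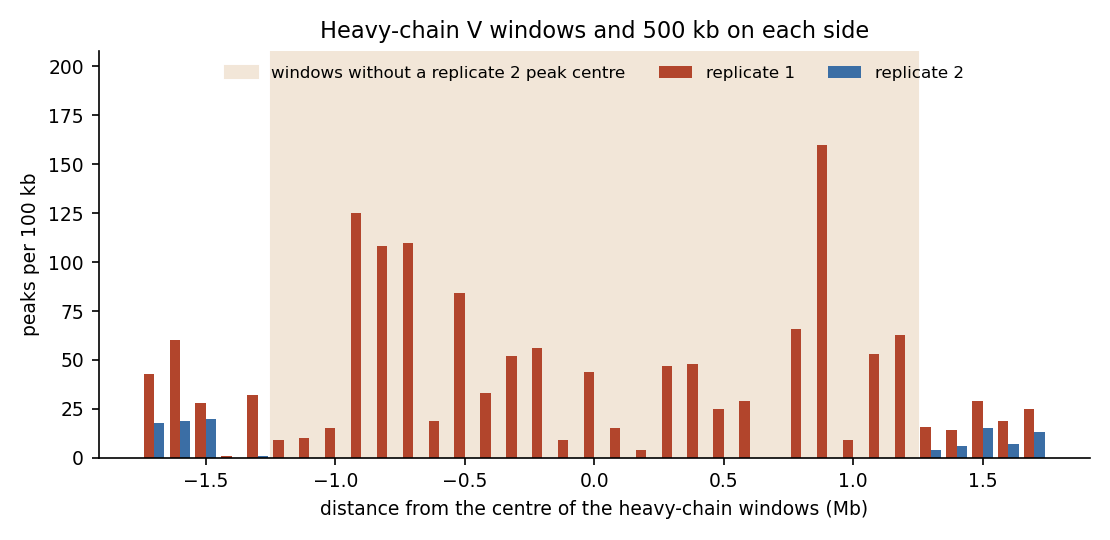
Peaks per 100 kb in replicate 1 (red) and replicate 2 (blue) across the 5 heavy-chain V windows (shaded) and 500 kb on each side, by distance from the centre of the windows in Mb. Replicate 1 reaches 160 peaks per 100 kb in the shaded part, where replicate 2 has none, while both lists have peaks on either side.

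Sequence in this tract is partly repeated. The share of unique words in the 5 windows ranged from 27.2% to 61.3%, and within the peaks it averaged 60.6%. Gaps were negligible, at most 0.0002% of a window. Motif shares in these peaks were lower than in the sparse windows for CTCF (1.93%), KLF (4.61%), RUNX (10.8%) and ETS (0.419%). They were closer for GATA (10.8%) and AP-1 (5.53%). The median GC of these peaks was 39.3%, against 44.7% for peaks of the sparse windows, and its part in the motif shares was not tested. The part of repeated sequence in the difference between the lists was not tested.

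The kappa light-chain locus on chromosome 6 also had 2 such windows, with 53 of its 160 annotated V segments, counted by symbol, but replicate 1 had 5 peaks in them. The lambda locus and the T-cell receptor alpha and delta, beta and gamma V windows each held replicate 2 peaks and contributed no window.

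Another 15 windows had more than 20 replicate 1 peaks, 607 in all, with a median score of 17. These windows were singled out after their values had been seen. Much of their count lay in short stretches. Chains of at least 15 replicate 1 peaks no more than 10 kb apart numbered 17 outside the heavy-chain tract, with 435 peaks, and they spanned 5.77 to 21.5 kb each. A chain of 19 peaks on chromosome 1 and a chain of 15 peaks on chromosome 7 lay in windows with 20 or fewer peaks. The remaining chains lay in the 15 windows described here. In 15 of the 17 the median score was under 25. Within the heavy-chain tract there were 22 such chains with 1009 peaks.

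The most populated of the 17 was chr3:91898776-91913545 with 45 peaks in 14.8 kb, at a median spacing of 320 bp and scores of 9 to 25, and unique words averaged 70.7% of its peaks. A pair lay within the body of Macrod2, a very long gene for an ADP-ribose hydrolase. The Macrod2 pair, chr2:141829596-141842285 and chr2:141877956-141891905, had 32 and 37 peaks with a median score of 13 in each. Unique words averaged 99.7% and 97.8% of those peaks. The stretch chr4:146050056-146067185 had 36 peaks with a median score of 22.5, and unique words averaged 3.33% of them. Another pair lay in the window of Cdh7 on chromosome 1, with 36 and 28 peaks and median scores of 23 and 23.5. In the bitter taste receptor windows, stretches of 21 and 20 peaks had median scores of 14 and 11 and lay apart from the receptor promoters, which had no replicate 1 peak. A stretch of 24 peaks with a median score of 11 lay in the window of Snrpn and Snurf, an imprinted gene pair on chromosome 7.

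A pair of stretches stood higher. The stretch chr4:114126896-114142305 beside Skint11 had 22 peaks in 15.4 kb with scores of 52 to 110 and a median of 71.5, and unique words averaged 87.3% of them. Both peaks with a score of 110 belong to it, and 1 of these holds 2 GATA matches and a KLF match. The nearest replicate 2 peak was 495 kb from the stretch. The stretch chr4:146515276-146536445 in Zfp981, a zinc finger gene, had 24 peaks with scores of 40 to 101 and a median of 49.5. More than 10% of the bases in its window were undetermined and 12.5% of its words were unique, while the peaks themselves averaged 82.1%.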

How the data were processed

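Peak and hotspot lists were used as deposited by the authors for the mm10 build, with the aligner and caller not given in the sources used here. The deposited score in each peak row (1 to 150) is the authors' value, and the deposited hotspot lists give −log10 of a q-value. Replicate 1 has 1 list for 2 merged libraries and replicate 2 has 1 list for 1 library. Exact repeats (67 and 7 rows) were dropped. Windows of 500 kb were counted from position 3000000 on chromosomes 1 to 19 and a last partial window was dropped. A peak belongs to the window of its centre and a gene (GENCODE release 21, basic set) to that of its start. A promoter peak is centred within 1000 bp of a start of a protein-coding transcript. Families were set by symbol patterns. Base composition, soft-masked repeats and unique 32-base words, sampled every 250 bp, came from the RefSeq GRCm38 genome.

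Named genes were, per family, up to 4 by promoter score and position. Also named were genes of the 5 longest runs, the 10 longest genes, the 10 highest promoter scores and the genes nearest to the 10 highest peaks. A gene that this rule names is not reported here. The members and lists were chosen with earlier results of these data known. With 1 list per replicate no test between samples was made. Wilson 95% intervals are given for some shares only. The counting functions were tested on simulated windows. Python 3.11.15, numpy 2.4.6, pandas 2.3.3 and scipy 1.17.1 were used.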

Additional observations from a re-analysis of the deposited data

How the results depend on the processing

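No paired analysis was possible because each replicate has 1 list. Counts are called moved beyond 1.5 times, and shares and medians beyond their 95% interval. Shifting the grid by 250 kb moved 1 of 9 results, the median score (28), and marking windows by replicate 2 hotspots or leaving out windows with over 10% undetermined bases moved none. With the higher-scoring 50% of replicate 2 peaks as the marker there were 1567 windows, 2522 protein-coding genes, 22.5% olfactory receptors, 12984 replicate 1 peaks of median score 36, promoter peaks at 5.11% of genes and a median GC of 38.7%. Windows of 250 kb gave 2450 windows, 1848 genes, 20.9% olfactory receptors, 7434 replicate 1 peaks, 696 windows without replicate 1 and 38.7% GC. Windows of 1 Mb gave 183 windows, 574 genes, 2123 replicate 1 peaks, 14 windows without replicate 1 and 37.9% GC. Marked by the replicate 1 list there were 121 windows. Marked by its 89046 highest peaks there were 1337 windows, 2182 genes and 22.2% olfactory receptors. Over all annotated genes the olfactory share was 4.94%. Promoter peaks within 2500 bp were found at 6.02% of genes, against 67.3% of all genes. The following alternatives were chosen after seeing the data. Without the heavy-chain windows there were 2942 replicate 1 peaks with a median score of 31, and without windows of over 20 peaks 2335 with a median of 33. Without windows under 50% unique words there were 693 genes, 28.4% olfactory receptors and 2696 replicate 1 peaks. The cause of these changes was not tested.

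Limits: 1 library stands for replicate 2, and depth is unknown, so the absence of a called peak is not the absence of open chromatin. Intervals cover counting error only.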

Other observations

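Of 51129 annotated genes of any type, 4775 (9.34%) started in the windows. By type, the windows held the starts of 1294 of 8901 processed pseudogenes (14.5%) and 481 of 1785 unprocessed pseudogenes (26.9%). They also held 510 of 5199 lincRNAs (9.81%) and 246 of 1438 snoRNAs (17.1%), while antisense genes had 97 of 2913 (3.33%). A single window, chr7:59500001-60000000, held 136 annotated gene starts of any type and 0 protein-coding starts. Its part in the snoRNA count was not computed, so that share may reflect a cluster more than the windows at large. Of 218 immunoglobulin V genes on the autosomes, 147 (67.4%) started in the windows. In 36 windows no annotated gene of any type started.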
